A study of Mus musculus with 5 samples.

Results

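The proteins of the cytosolic ribosome were described in atria that lost the heart transcription factor Nkx2-5. The members were 83 of the 40624 genes in the deposited table. A gene was a member when the table lists it as protein-coding under a ribosomal protein symbol of the large subunit (Rpl), the small subunit (Rps), the P stalk (Rplp0, Rplp1, Rplp2) or Rpsa. By role, 42 belonged to the large subunit, 31 to the small subunit and 3 to the P stalk, and 7 were grouped as paralogs, genes related to another ribosomal protein gene. The study sequenced polyA RNA from atria of C57BL/6 mice at postnatal day 1. The 2 mutant libraries (5 and 7) had the genotype SLN-Cre; Nkx2-5-flox/flox. The 3 control libraries (2, 4 and 6) had the genotype SLN-Cre; Nkx2-5-flox/+. Both groups carried the Cre, which is driven from the gene of sarcolipin, a calcium pump inhibitor of atrial muscle cells, and the controls carried 1 floxed allele. The tissue was whole atria, so cells that do not express the Cre were in every library, and less RNA per cell and fewer cells of a type cannot be told apart. The labels do not state whether libraries came from separate animals, so a p-value here reflects only how far these samples spread.

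Each ribosome joins a small subunit, which reads the messenger RNA, to a large subunit, which links amino acids. The P stalk of the large subunit recruits the elongation factors. The messenger RNAs of these proteins begin with a run of pyrimidines, the 5′ terminal oligopyrimidine (TOP) motif, which lets the mTOR kinase and the RNA-binding protein Larp1 control their translation together. Mammalian genomes also hold many processed copies of these genes, pseudogenes made by reverse transcription of their messenger RNAs.

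The targeted gene was low in the libraries labelled mutant, and markers of the labelled tissue were abundant. Nkx2-5 stood at 5.79 and 5.21 CPM (counts scaled to library size, with TMM-scaled totals) in mutants 5 and 7, against 76.8, 72.1 and 71.3 CPM in controls 2, 4 and 6, with an adjusted p of 7.03e-07 in edgeR's quasi-likelihood test. Myl7, the regulatory myosin light chain of atrial muscle, was at 10817 and 9949 CPM in the mutant libraries and at 11075, 10778 and 10285 CPM in the control libraries. The mutant libraries held 78.8 M and 69.6 M gene counts and the control libraries 58.5 M, 58.9 M and 60.9 M. Mutant 7 stood apart from the others in 2 measures. Its mitochondrially encoded genes took 7.62% of gene counts, against 4.81% in mutant 5 and 4.91%, 5.89% and 5.15% in the controls. Its short transcripts were also low as a class, with values given below beside the result they touch.

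The first bases of several members are shown because the pyrimidine run at the start is the feature this gene class is known for. Of the 83 members, 61 matched RefSeq's table of start sites on GRCm38.p6. Each line gives the 10 bases before the listed start and the 20 bases from it, read along the gene's strand, and capitals mark a run of pyrimidines that begins with C at the start itself. The lines for Rpl15, Rpl35, Rps10, Rps6, Rpl38 and Rps27 hold such a run, and those for Rpl37a, Rpl22l1, Rpsa and the muscle paralog Rpl3l hold none at the listed start.
Rpl15: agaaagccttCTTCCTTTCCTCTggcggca
Rpl35: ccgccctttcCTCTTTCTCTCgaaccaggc
Rps10: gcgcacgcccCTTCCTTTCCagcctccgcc
Rps6: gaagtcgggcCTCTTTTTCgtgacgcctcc
Rpl38: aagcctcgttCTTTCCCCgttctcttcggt
Rps27: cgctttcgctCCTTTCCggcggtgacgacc
Rpl37a: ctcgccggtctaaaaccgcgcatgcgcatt
Rpl22l1: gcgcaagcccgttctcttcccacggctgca
Rpsa: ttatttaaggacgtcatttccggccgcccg
Rpl3l: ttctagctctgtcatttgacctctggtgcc
The Rpl15 window lies at chr14:18270967-18270996 on the minus strand. The Rps27 window lies at chr3:90213629-90213658 on the minus strand, and the Rpl3l window at chr17:24727816-24727845 on the plus strand.

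A run of at least 5 pyrimidines from a C at a listed start was found in 13 of the 61 members (21.3%), against 800 of 26964 other genes (3.0%). Among genes with 1 listed start, the counts were 11 of 51 members (21.6%) and 553 of 22811 other genes (2.4%). RefSeq starts can lie some bases from the base where transcription begins, so a wider search was made for a C followed by 6 or more pyrimidines anywhere in the 30-base window. It found 22 of 51 members (43.1%), against 3046 of 22811 other genes (13.4%). In the 300 bases around the start, 250 before it and 50 after, the ETS factor motif CCGGAAG stood on either strand in 20 of 51 members (39.2%), against 9.0% of other genes. The Sp1 motif GGGCGG stood in 30 of 51 members (58.8%), against 35.1% of other genes. The Nkx2-5 motif TNAAGTG stood in 4 of 51 members (7.8%), against 11.5% of other genes. The TATA motif TATAAA stood in 6 of 51 members (11.8%), against 14.8% of other genes, and the YY1 motif AAGATGG in 8 of 51 members (15.7%), against 6.6% of other genes. None of these 5 motifs contains another, all were searched on both strands, and a match describes letters only.

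Across the 82 members that could be tested, most ribosomal protein messages had fold changes slightly below 0 in mutant against control atria, and none passed the test. In edgeR's quasi-likelihood test, adjusted by Benjamini-Hochberg over 17835 genes, 0 members had an adjusted p under 0.05, while 6.58% of all tested genes did (3.02% higher and 3.57% lower). At an unadjusted p under 0.05, 10 members were lower and 0 were higher, against 10.2% and 10.5% of all tested genes, so the count of low members was near the background. DESeq2 called 1 member lower and limma-voom called 0. The direction was nevertheless shared: 75 of 82 members (91.5%) had a log2 fold change below 0, against 48.7% of all tested genes. The median log2 fold change was -0.11 (quartiles -0.14 and -0.09), a difference of -7.25%, while the median of all tested genes was 0.01. It was 0.02 for 9788 other genes whose levels lay in the range of the members. Among other protein-coding genes at these levels, the median was -0.08 for 52 genes with transcripts under 500 bases, of which 65.4% were below 0. For 464 genes of 500 to under 1000 bases it was -0.05, and 64.9% were below 0. Of the 82 members, 54 lay within 0.05 of the members' median on the log2 scale.

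**Figure D1:**
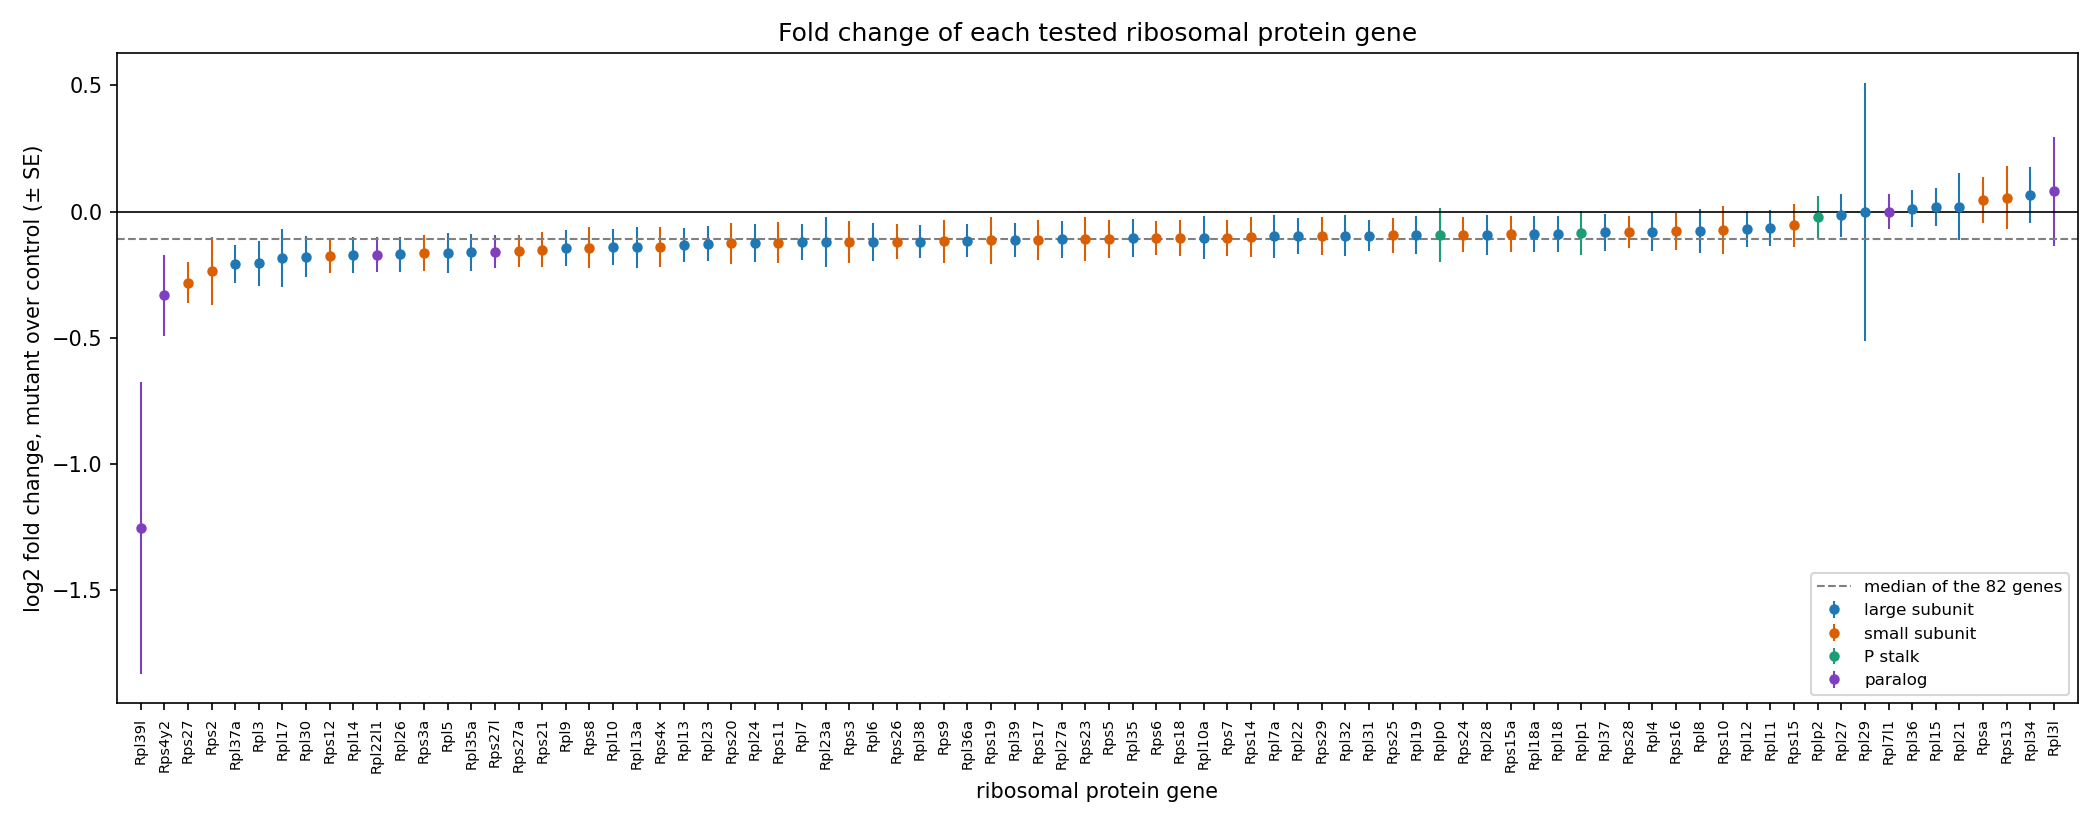
Log2 fold change of mutant over control (vertical axis) for each of the 82 tested ribosomal protein genes, ordered by value; points are edgeR estimates, bars are ± 1 SE, colours give the role, and the dashed line is the median of -0.11. Most genes sit close to the dashed line, Rpl39l lies far below it with a wide bar, and 7 genes lie above 0.

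The medians of both subunits were close, and their difference was not tested. The median log2 fold change was -0.11 for 42 large-subunit genes, of which 38 were below 0, and -0.11 for 31 small-subunit genes, of which 29 were below 0. The 3 P-stalk genes had a median of -0.09 and the 6 tested paralogs a median of -0.17, and all 3 stalk genes and 5 of the 6 paralogs were below 0. Members with and without a pyrimidine run at the listed start also had near-equal medians, -0.11 over 13 genes and -0.11 over 47 genes. Because listed starts can lie some bases off, the 47 genes can include ones whose messages begin with such a run. Other tested genes with such a run had a median of 0.02 over 320 genes, and those without one 0.01 over 10509 genes.

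The shift lay mostly in 1 of the 2 mutant libraries. Relative to the mean of the controls, the median member stood at -0.17 in mutant 7 and at -0.05 in mutant 5 on the log2 scale, against -0.02, 0.05 and -0.03 in controls 2, 4 and 6. The SD of the 3 control medians was 0.04, so the offset of mutant 5 was about as large as the spread between control libraries. Mutant 7 was the lowest library for 75 of the 82 members and lay below every control for 78. Mutant 5 lay below every control for 45, and control 4 was the highest library for 63. Both mutant libraries lay wholly below the controls for 44 members and wholly above for 0, against 19.2% and 18.6% of all tested genes. Members move together within a library, so these counts do not add up as separate observations. Without mutant 7 the median log2 fold change was -0.06, 2 members were lower at an unadjusted p under 0.05 and 66 were below 0. Without mutant 5 it was -0.17, 41 members were lower at an unadjusted p under 0.05, and 2 (Rps27 and Rpl37a) passed the adjusted threshold.

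**Figure D2:**
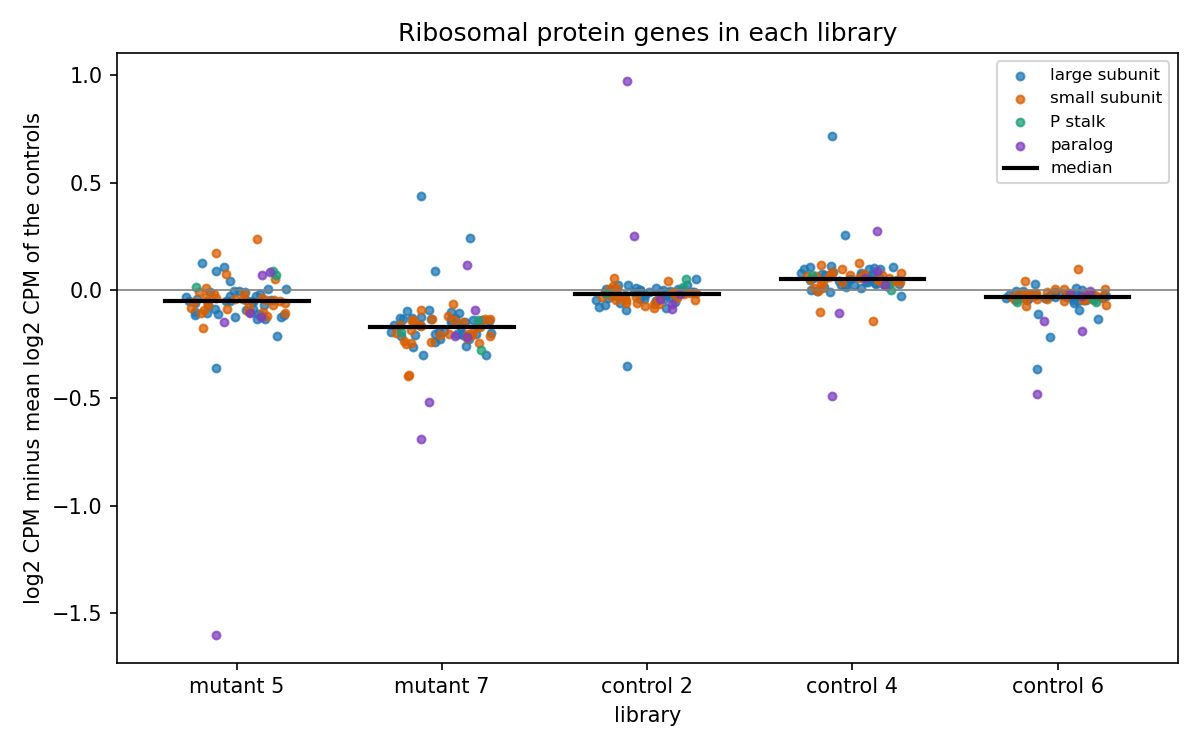
Log2 CPM of each of the 82 tested ribosomal protein genes minus its mean log2 CPM in the controls (vertical axis), by library (horizontal axis); each point is 1 gene, coloured by role, and black lines are medians. The medians are -0.05 in mutant 5 and -0.17 in mutant 7, against -0.02, 0.05 and -0.03 in the controls, and the spread of genes within a library is narrow apart from a few genes.

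Summed over members, ribosomal protein genes took 2.69% and 2.41% of gene counts in mutants 5 and 7, against 2.78%, 2.91% and 2.76% in controls 2, 4 and 6. The mutant mean was 2.55% ± 0.20 (SD, n = 2) and the control mean 2.82% ± 0.08 (SD, n = 3), a difference of -0.27 percentage points. Both mutant shares lay below all control shares, by a small margin for mutant 5. With mitochondrially encoded genes left out of the total, the shares were 2.83% and 2.61% in the mutants and 2.92%, 3.09% and 2.91% in the controls.

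Short transcripts of other genes were also low in mutant 7, and less far from the control mean in the other libraries. The members' main transcripts had a median length of 853 bases. Among other protein-coding genes at the members' levels, the 52 genes with transcripts under 500 bases had a median deviation of -0.14 in mutant 7 and -0.01 in mutant 5, against 0.02, 0.04 and -0.06 in the controls. For the 464 genes of 500 to under 1000 bases, the medians were -0.10 in mutant 7 and -0.001 in mutant 5. They were 0.01, 0.04 and -0.04 in controls 2, 4 and 6. For the 3321 genes of 4000 bases or more, the median was 0.10 in mutant 7 and 0.01 in mutant 5. The members themselves stood at -0.17 in mutant 7 and -0.05 in mutant 5, against -0.02, 0.05 and -0.03 in controls 2, 4 and 6. When each library's trend with transcript length was taken out, an alternative chosen after seeing the data, the members' median was -0.07 and 72 of 82 members were below 0, with 0 called. The part of the high mitochondrial share of mutant 7 in the shift was not tested.

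**Figure D3:**
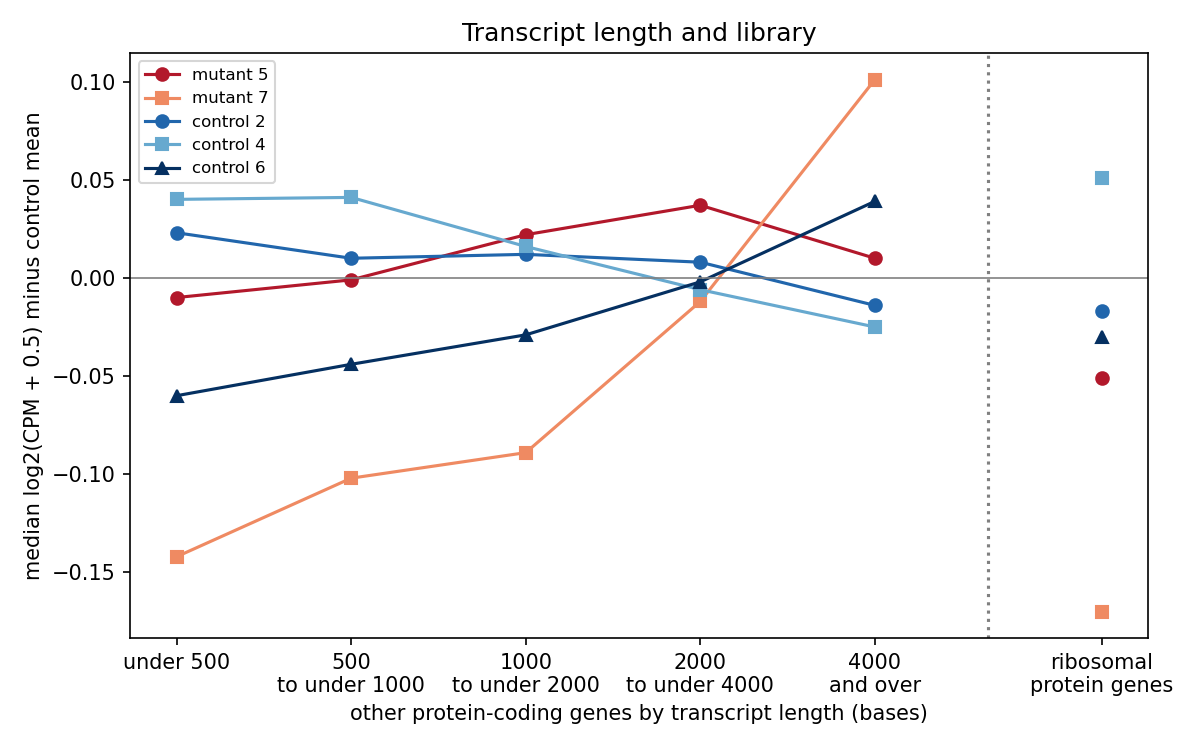
Median deviation from the control mean on the log2(CPM + 0.5) scale (vertical axis) of other protein-coding genes at the members' levels, by transcript length in bases (horizontal axis), with the 82 ribosomal protein genes at the right; each line or symbol is 1 library. Mutant 7 runs from -0.14 for transcripts under 500 bases to 0.10 at 4000 bases and over, and its ribosomal protein genes stand at -0.17.

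Rps27, a zinc-finger protein of the small subunit, had the smallest p among the members. It was at 260.0 and 223 CPM in mutants 5 and 7, against 297, 293 and 290.0 CPM in controls 2, 4 and 6, so both mutant libraries lay below a tight group of controls. Its log2 fold change was -0.28 ± 0.08 (SE), with an unadjusted p of 0.00716 and an adjusted p of 0.0788 in edgeR's test, and it did not pass. DESeq2 gave an adjusted p of 0.0216, the edgeR fit with no filter 0.0464 and the edgeR fit without mutant 5 0.0104, each past the threshold. In the authors' deposited table its p-value was 0.00785 and its adjusted p 0.126. Its listed gene span is on chromosome 3, 90016647 to 90017537, in mm9.

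Among the other members with an unadjusted p under 0.05, 3 were named after their values were seen. Rpl37a, a zinc-finger protein of the large subunit, was at 230.4 and 204 CPM in the mutants and at 249, 259 and 244 CPM in the controls (log2 fold change -0.21 ± 0.08, SE, edgeR adjusted p = 0.156). Rps12, a small-subunit protein, was at 85.7 and 77.8 CPM in the mutants and at 90.5, 96.5 and 90.01 CPM in the controls (adjusted p = 0.19 in edgeR's test). Rps27a, which is made as a fusion with ubiquitin, was at 132 and 122 CPM in the mutants and at 137, 145 and 142 CPM in the controls (adjusted p = 0.204 in edgeR's test). In each of these 3 genes mutant 7 was lowest and both mutant libraries lay below the controls.

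Per base of gene length, the most abundant members were Rplp1, Rpl32 and Rpl4. Levels in this paragraph are RPKM, the group mean of CPM divided by the table's gene length in kb. Rplp1 stood at 1630 RPKM in mutant and 1730 RPKM in control atria. Rpl32, a large-subunit protein, stood at 1150 RPKM in mutant and 1230 RPKM in control atria, and Rpl4, another, at 833 RPKM in mutant and 880 RPKM in control atria. The lowest tested members were Rpl39l, at 0.219 RPKM in mutant and 0.521 RPKM in control atria, Rpl3l, at 1.27 RPKM in mutant and 1.20 RPKM in control atria, and Rps2, at 1.39 RPKM in mutant and 1.64 RPKM in control atria. Rps2 encodes a core protein of the small subunit, and its low level is set beside its copies below. The listed lengths include transcripts that are much longer than the main one, 4819 bases for Rps2, against 1094 bases for its main transcript in GENCODE, and a longer listed length gives a lower level.

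The P-stalk genes did not separate the groups. Rplp0, whose protein anchors the stalk, was at 1338 and 1050 CPM in mutants 5 and 7, against 1319, 1273 and 1226 CPM in controls 2, 4 and 6 (log2 fold change -0.09 ± 0.11, SE). Rplp1 was at 863 and 747 CPM in the mutants and at 846, 896 and 821 CPM in the controls, and its log2 fold change was -0.09 ± 0.09 (SE). Rplp2 was at 385 and 328 CPM in the mutants and at 366, 368 and 351 CPM in the controls, with a log2 fold change of -0.02 ± 0.08 (SE). In all 3 genes mutant 7 was the lowest library while mutant 5 lay within the control range or above it. Rpsa, a small-subunit protein that has also been described as a laminin receptor, was at 373 and 309.8 CPM in the mutants and at 320, 349.9 and 322 CPM in the controls (log2 fold change 0.05 ± 0.09, SE). It was thus highest in mutant 5 and lowest in mutant 7, and the groups overlapped.

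Paralogs were set against their counterparts within each library, a ratio that does not depend on how libraries are scaled. A library's trend with transcript length can still enter the ratio where a pair differs in length. Main transcripts were 552 bases for Rpl22l1 and 2051 for Rpl22, and 2606 for Rpl7l1 and 1163 for Rpl7. The part of length in these ratios was not tested. Rpl3l is the striated-muscle paralog of Rpl3, whose protein reaches into the catalytic centre of the large subunit. Rpl3l had 155 and 140 counts in mutants 5 and 7, against 105, 136 and 102 counts in controls 2, 4 and 6, which is 1.99 and 2.05 CPM in the mutants and 1.78, 2.29 and 1.66 CPM in the controls. Rpl3 was at 279 and 245 CPM in the mutants and at 308, 320.5 and 280 CPM in the controls, with a log2 fold change of -0.21 ± 0.09 (SE, edgeR adjusted p = 0.228). Rpl3 was therefore the dominant form in every library. Per 1000 Rpl3 counts there were 7.11 and 8.36 Rpl3l counts in the mutants and 5.79, 7.13 and 5.93 in the controls. Mutant 5 and control 4 had nearly the same ratio. The Rpl3 counts leave out its pseudogene copies, whose share differed between libraries, as given below.

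Rps27l and Rps27 encode near-identical small-subunit proteins. Rps27l was at 86.7 and 80.5 CPM in the mutants and at 90.7, 97.2 and 92.3 CPM in the controls (log2 fold change -0.16 ± 0.07, SE, edgeR adjusted p = 0.209). Per 1000 Rps27 counts there were 334 and 362 Rps27l counts in the mutants and 305, 332 and 318 in the controls, so the paralog's share was highest in mutant 7. Rpl22l1, the paralog of the RNA-binding protein Rpl22, was at 108 and 101 CPM in the mutants and at 113, 125 and 115 CPM in the controls. Per 1000 Rpl22 counts there were 384 and 363 Rpl22l1 counts in the mutants and 390.0, 396 and 395 in the controls. The control ratios lay close together and mutant 7 lay furthest below them.

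Rpl7l1 was at 91.2 and 80.9 CPM in the mutants and at 85.1, 87.5 and 85.9 CPM in the controls, a log2 fold change of -0.0012 ± 0.07 (SE). Its counterpart Rpl7 was at 627 and 597 CPM in the mutants and at 654, 690 and 655 CPM in the controls. Per 1000 Rpl7 counts there were 145 and 135 Rpl7l1 counts in the mutants and 130, 127 and 131 in the controls. The groups did not overlap for this pair, nor for the ratios of Rps27l, Rpl22l1 and Rpl39l. By level, 18.6% of all tested genes lay wholly above the controls and 19.2% wholly below. Rpl36al, a retrogene of Rpl36a that lies outside the name rule, was at 568 and 559 per 1000 Rpl36a counts in the mutants and at 580, 545 and 567 in the controls. These ratios overlapped.

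Rpl39l, the germ-cell paralog of the exit-tunnel protein Rpl39, had 14 and 23 counts in the mutants and 63, 23 and 24 counts in the controls. Control 2 alone was high, and the other 4 libraries held 14 to 24 counts. Its log2 fold change of -1.25 ± 0.58 (SE), the largest among the members, had an adjusted p of 0.267 in edgeR's test, and it was -0.60 without control 2. Rpl10l, the testis paralog of Rpl10, had 0 counts in every library and was not tested; 3 counts, the number that a count of 0 allows, would be 0.0384 and 0.0439 CPM in the mutants and 0.0509, 0.0504 and 0.0487 CPM in the controls. Rpl10 itself was at 112 and 108 CPM in the mutants and at 116, 131 and 118 CPM in the controls.

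Names in the table needed care in 3 cases. The member listed as Rps4y2 carries an identifier that the GENCODE vM21 annotation names Rps4l and lists as a transcribed processed pseudogene. It was at 53.0 and 41.0 CPM in the mutants and at 69.8, 54.5 and 53.1 CPM in the controls (log2 fold change -0.33 ± 0.16, SE, edgeR adjusted p = 0.312), and control 2 was again the high library. Without control 2 the log2 fold change was -0.20. Set against Rps4x, a pair added after the files were seen, it had 54.1 and 45.3 counts per 1000 in the mutants and 68.8, 50.2 and 52.3 in the controls. The entry for Rpl24 carries the identifier that GENCODE gives to its neighbour Zbtb11, and its listed length of 7160 bases and span on chromosome 16 from 55966547 to 56007438 (mm9) are far longer than the 677 bases of the Rpl24 transcript. Reads of Rpl24 and Zbtb11 therefore cannot be told apart in its 337 and 304 CPM in the mutants and 350.5, 359 and 339 CPM in the controls. Rps3a is named Rps3a1 in GENCODE.

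Most members share sequence with processed copies, and how reads that match both were counted is not stated. Of the 83 members, 80 shared at least one exact run of 50 bases with an annotated pseudogene transcript, and the median member shared 40.2% of its runs. The table held 601 such pseudogenes. Their counts made up 11.2% and 11.4% of the counts of members and copies together in mutants 5 and 7, and 11.2%, 11.5% and 11.5% in controls 2, 4 and 6, so the overall division between genes and copies was nearly the same in every library. Of the 310 copies that were tested, 0 passed edgeR's test, 221 were below 0 and the median log2 fold change was -0.09. Rps2 lay at the extreme. Its 42 copies held 92.1% and 92.2% of the joint counts in the mutants and 90.5%, 91.9% and 90.3% in the controls, and Rps2 itself had only 7.42 and 6.02 CPM in the mutants and 8.23, 7.36 and 8.16 CPM in the controls.

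For a few members the division between gene and copy differed between libraries of the same genotype. These were named after their values were seen. Rpl29, a small protein of the large subunit, was at 33.4 and 58.0 CPM in mutants 5 and 7, against 33.6, 70.4 and 33.2 CPM in controls 2, 4 and 6. Its copy Gm13841 was at 35.01 and 3.65 CPM in the mutants and at 36.9, 4.69 and 34.6 CPM in the controls. Mutant 7 and control 4 thus had high Rpl29 and low Gm13841, and the other 3 libraries had nearly equal levels of both. The sum of Rpl29 and its 39 copies was 71.8 and 67.8 CPM in the mutants and 74.1, 82.5 and 71.9 CPM in the controls. The highest library was 2.12 times the lowest for Rpl29 alone and 1.22 times for the sum. The gene's standard error of 0.51 on the log2 scale was far above the members' median of 0.08.

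The coding part of Rpl29, 480 bases long, differs from Gm13841 at 3 positions in GENCODE's transcripts on GRCm38. The stretch around the first difference shows how little sequence separates the gene from its copy, with the differing base in capitals. Positions 57 to 86 count from the first base of the Rpl29 coding part.
Rpl29: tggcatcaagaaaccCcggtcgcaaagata
Gm13841: tggcatcaagaaaccAcggtcgcaaagata
Rps13 differs from its copy Rps13-ps1 at 2 of 453 coding positions, and the first difference lies in positions 396 to 425.
Rps13: gcgggtgctcccaccTaattggaaatatga
Rps13-ps1: gcgggtgctcccaccCaattggaaatatga
Rpl34 differs from Rpl34-ps1 at 2 of 351 coding positions, and the first difference lies in positions 117 to 146.
Rpl34: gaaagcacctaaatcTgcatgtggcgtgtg
Rpl34-ps1: gaaagcacctaaatcCgcatgtggcgtgtg

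Rps13 and Rpl34 were among the 3 members with the largest positive fold changes, and for both the direction turned when copies were added. Rps13, a small-subunit protein, was at 83.1 and 63.6 CPM in the mutants and at 72.4, 63.8 and 75.5 CPM in the controls (log2 fold change 0.06 ± 0.12, SE). Rps13-ps1 was at 5.18 and 14.3 CPM in the mutants and at 17.7, 31.7 and 16.8 CPM in the controls, lowest in mutant 5, where Rps13 was highest, and highest in control 4. With all copies added, Rps13 was at 103.6 and 88.4 CPM in the mutants and at 103.2, 108 and 105 CPM in the controls, and its log2 fold change was -0.14 (edgeR adjusted p = 0.344). Rpl34, a large-subunit protein, was at 133 and 173 CPM in the mutants and at 141, 156 and 142 CPM in the controls (log2 fold change 0.07 ± 0.11, SE). Its copy Rpl34-ps1 was at 27.8 and 13.4 CPM in the mutants and at 29.3, 32.7 and 28.6 CPM in the controls, so it was low in mutant 7, where Rpl34 was high. With its copies added, the log2 fold change of Rpl34 was -0.09 (edgeR adjusted p = 0.544).

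The 2 copies had low p-values in the authors' deposited table and not in edgeR's test. In the authors' deposited table the adjusted p was 0.000103 for Rps13-ps1 and 0.000499 for Rpl34-ps1. In edgeR's test they were 0.407 and 0.448. The authors' deposited table gave 0 of 82 members an adjusted p under 0.05 and 77 a negative log2 ratio. Rpl3 also shifted between gene and copy, with copies at 40.4% and 41.1% of the joint counts in the mutants and at 34.5%, 34.8% and 41.1% in the controls, so control 6 went with the mutants. With its copies added, Rpl3 was at 469 and 416.5 CPM in the mutants and at 469.6, 491.5 and 474.9 CPM in the controls. The log2 ratio of these group means was -0.11. When all copies were added to their parent genes, an alternative chosen after seeing the data, the median log2 fold change of the members was -0.12, 78 of 82 were below 0 and 0 passed.

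**Figure D4:**
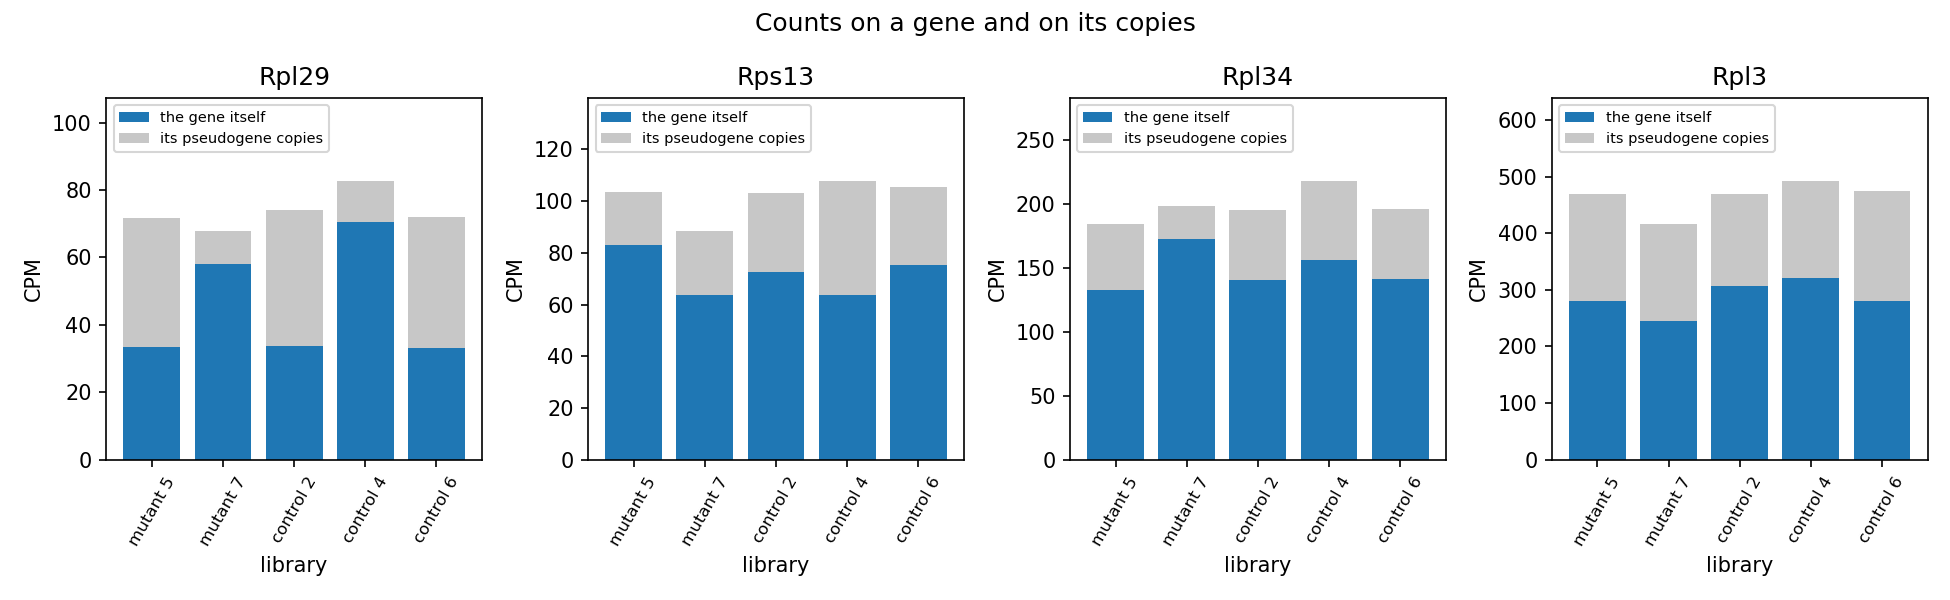
CPM (vertical axis, from 0) of Rpl29, Rps13, Rpl34 and Rpl3 in each library (horizontal axis), stacked from the gene itself (blue) and the sum of its pseudogene copies (grey); each bar is 1 library and has no error bar. The blue part of Rpl29 is 58.0 CPM in mutant 7 and 70.4 CPM in control 4 and 33.2 to 33.6 CPM in the other libraries, while the whole bars range only from 67.8 to 82.5 CPM.

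For 3 ribosomal protein genes outside the name rule, the log2 fold changes were close to the members' median. Rpl36al was at 136 and 131 CPM in the mutants and at 148, 144 and 141 CPM in the controls. Fau, which encodes a small-subunit protein fused to a ubiquitin-like one, was at 311 and 274 CPM in the mutants and at 323, 315 and 307 CPM in the controls. Gnb2l1, the table's name for the scaffold protein Rack1 of the small subunit, was at 983 and 838 CPM in the mutants and at 981, 1022 and 961 CPM in the controls. Their log2 fold changes were -0.12, -0.11 and -0.12, and 0 of these 3 passed edgeR's test.

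Most genes that build ribosomes had fold changes above 0, and none passed the test. Of 68 genes for ribosome biogenesis, 54 had a log2 fold change above 0, against 9158 of all 17835 tested genes. Among other genes at the members' levels it was 5360 of 9788. The list's median was 0.07 (0.03 to 0.09 with 1 library left out). It was 0.06 for other protein-coding genes at the members' levels with transcripts of 4000 bases or more. For those of 2000 to under 4000 bases it was 0.02, and for those of 1000 to under 2000 bases -0.03. The part of transcript length in this list was not tested. In edgeR's test 0 of the 68 passed. At an unadjusted p under 0.05, 6 were higher and 0 lower, against 10.5% and 10.2% of all tested genes. DESeq2 called Mdn1 higher, as did edgeR's test without mutant 5, with an adjusted p of 0.00145, and edgeR's test after the length correction, with an adjusted p of 0.0151. The log2 fold change of Mdn1 was 0.55 with all libraries, 0.23 without mutant 7 and 0.81 without mutant 5. The smallest p-values belonged to Mdn1, the AAA-type ATPase of large-subunit maturation, at 25.3 and 37.8 CPM in the mutants and 20.9, 21.1 and 22.5 CPM in the controls, and to Rrp12, at 20.95 and 24.8 CPM in the mutants and 17.1, 18.8 and 19.1 CPM in the controls. Nolc1, a nucleolar phosphoprotein, was at 62.4 and 62.1 CPM in the mutants and at 50.8, 55.7 and 54.1 CPM in the controls. Ddx21, a nucleolar RNA helicase, was at 84.4 and 79.1 CPM in the mutants and at 63.5, 73.4 and 72.3 CPM in the controls. All 4, taken as the smallest p-values of the list, were higher in both mutant libraries than in every control. Their adjusted p were 0.096 to 0.136 in edgeR's test. Of the 68 genes, 24 lay wholly above the controls and 3 wholly below, against 18.6% and 19.2% of all tested genes.

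Of 15 genes for ribosomal RNA transcription, 9 were above 0, the median was 0.06 and 0 passed. Polr1a, the largest subunit of RNA polymerase I, was at 55.0 and 54.8 CPM in the mutants and at 48.2, 44.8 and 47.0 CPM in the controls (edgeR adjusted p = 0.0815). The polymerase I subunits Polr1e and Polr1b had log2 fold changes of 0.26 and 0.23 and the promoter factor Taf1b one of -0.16, and 0 of these 3 passed edgeR's test. At an unadjusted p under 0.05, 3 of the 15 were higher and 0 lower, against 10.5% and 10.2% of all tested genes. DESeq2 called Polr1a and Polr1e.

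Among 20 genes of the mTOR pathway and TOP messenger control, 16 were above 0, the median was 0.05 and 1 rose. Of all tested genes, 3.02% were called higher. Tsc2, a brake on mTOR, was at 86.1 and 87.7 CPM in the mutants and at 70.1, 68.2 and 68.3 CPM in the controls, a log2 fold change of 0.34 ± 0.06 (SE, edgeR adjusted p = 0.0134). The call for Tsc2 was lost without control 2 or control 4 (adjusted p = 0.0598 and 0.0756 in edgeR's test). Myc, a transcription factor that drives ribosome production, was at 30.5 and 27.3 CPM in the mutants and at 18.5, 21.3 and 24.3 CPM in the controls and did not pass (adjusted p = 0.0668 in edgeR's test). It passed with DESeq2 (adjusted p = 0.0171), with no filter in edgeR's test (adjusted p = 0.0181) and in that test without control 6 (adjusted p = 0.0389). Rptor, the mTORC1 scaffold, and Larp1 had log2 fold changes of 0.24 and 0.13, and neither passed.

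Of the translation factors, 1 elongation gene rose and 0 fell, while 3.02% of all tested genes were called higher and 3.57% lower. Of 38 initiation factors, 21 were above 0, the median was 0.01 and 0 passed edgeR's test. At an unadjusted p under 0.05, 3 were higher and 1 lower, against 10.5% and 10.2% of all tested genes. Eif4g1, the scaffold of cap-dependent initiation, was at 469.9 and 486 CPM in the mutants and at 407, 397 and 422 CPM in the controls (adjusted p = 0.099), and DESeq2 called it higher. Eif1b, Eif4a1 and Eif4e had log2 fold changes of -0.22, 0.18 and 0.13. Of 17 elongation and termination genes, 10 were above 0, the median was 0.04 and 1 rose. With 1 library left out, the median ranged over -0.06 to 0.11 for elongation and termination and over -0.06 to 0.04 for initiation, so both signs depended on single libraries. Eif5a2, the second gene for the hypusine-bearing factor eIF5A, was at 12.3 and 13.4 CPM in the mutants and at 8.94, 8.82 and 9.78 CPM in the controls (log2 fold change 0.48 ± 0.11, SE, edgeR adjusted p = 0.0319). It did not pass without mutant 7 or without any single control (adjusted p of 0.0604 to 0.124). The release factor genes Etf1 and Gspt2 and the recycling factor gene Abce1 had log2 fold changes of 0.17, 0.40 and 0.14. Of 11 genes for ribosomal protein chaperones and the p53 link, 7 were above 0, the median was 0.01 (-0.02 to 0.07 with 1 library left out) and 0 passed, with 0 at an unadjusted p under 0.05. Grwd1, Trp53, Cdkn1a and Aamp had log2 fold changes of 0.24, 0.11, -0.10 and 0.06.

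Marker genes of other cell types moved between the groups as well. The summed level of 8 fibroblast markers was 8470 and 8630 CPM in the mutants and 10600 to 12100 CPM in the controls, and Dcn, Lum and Col3a1, genes of the fibroblast matrix, fell in edgeR's test (adjusted p = 0.00142, 0.000961 and 0.0248). These 3 were the only ones of the 8 called, against 3.57% of all tested genes called lower. Log2 fold changes of the 8 ranged from -0.92 to -0.11. The 14 erythroid markers summed to 1810 and 1780 CPM in the mutants and to 1140 to 1490 CPM in the controls, with the globin gene Hbb-b1 the most abundant. The 10 proliferation markers, such as Top2a, summed to 1070 and 1110 CPM in the mutants and to 860 to 921 CPM in the controls. The 7 leukocyte markers, such as Coro1a, summed to 167 and 170 CPM in the mutants and to 129 to 149 CPM in the controls. In edgeR's test, 3 of 10 proliferation, 3 of 7 leukocyte, 1 of 11 tested erythroid and 1 of 7 endothelial markers were called higher. The share of all tested genes was 3.02%. The 7 endothelial markers summed to 1730 and 2060 CPM in the mutants and 1560 to 1730 CPM in the controls, and 10 atrial muscle markers to 64600 and 59600 CPM in the mutants and 62100 to 65000 CPM in the controls. Within the atrial list Nppa, the atrial natriuretic peptide gene, fell to 849 and 1194 CPM in the mutants, against 6207, 6769 and 5281 CPM in the controls (edgeR adjusted p = 0.000961). The 12 skeletal muscle markers, 1 of them at 0 throughout, summed to 3450 and 3310 CPM in the mutants and 2430 to 2500 CPM in the controls. Tnnt3, a troponin gene of fast muscle, rose to 1019.8 and 1085 CPM in the mutants, against 58.7, 88.6 and 32.7 CPM in the controls (edgeR adjusted p = 0.0324), and 6 of the 11 tested skeletal markers were below 0. The 5 ventricular markers summed to 2690 and 2320 CPM in the mutants and 1940 to 2510 CPM in the controls. Most of this sum was Myh7, at 2616 and 2258 CPM in the mutants and 2064, 1846 and 2266 CPM in the controls. Of the 5 markers, 3 had log2 fold changes below 0. Within that list Hey2, a transcriptional repressor downstream of Notch, rose to 36.4 and 34.5 CPM in the mutants, against 5.48, 5.58 and 6.56 CPM in the controls (edgeR adjusted p = 6.57e-06). Myl3 was at 22.3 and 15.4 CPM in the mutants and 124, 67.2 and 145 CPM in the controls and did not pass. Nppa, Tnnt3, Hey2 and Myl3 were named after their values were seen. Markers of thymocytes stayed between 1.56 and 2.84 CPM in every library, with 1 of 10 at 0 throughout. With erythroid genes left out of the counts, the members' median log2 fold change was -0.11. The part of cell composition in the members' shift was not tested.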

How the data were processed

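TopHat2 2.0.4, HTSeq 0.5.4p3, DESeq and the mm9 build are named by the submitters' processing notes; their settings, the strand of counting and the treatment of reads with several matches are not given in the sources used here. For every gene the deposited table has a whole-number read count in each library. It also has the authors' RPKM, given once for each group, and from their own comparison a log2 ratio with its p-value and adjusted p-value. The entry for reads without a unique alignment is 0 in every library. Entries that name no gene (no feature, 3.97% to 6.03% of counts; ambiguous, 2.31% to 3.18%) were left out. A shorter deposited table of 1342 genes repeats counts of the full one and was not used.

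Libraries were grouped by genotype label. Counts of all genes were fitted with edgeR 4.0.16 in R 4.3.3 (filterByExpr at count 10 and total 15, TMM scaling, robust quasi-likelihood test, two-sided, prior count 0.125), and p-values were adjusted by Benjamini-Hochberg over 17835 genes at a threshold of 0.05. An exact permutation test of 2 against 3 libraries cannot go below p = 0.1. Each library held at least 58.5 M gene counts, and the limits given for a count of 0 cover counting error only. The members, gene lists and marker lists were chosen with earlier results of these data known. Named genes were Nkx2-5, members past the threshold, the 3 largest log2 fold changes each way, the 3 highest and lowest levels per length, untested members, paralog pairs, stalk genes, Rpsa, ribosomal protein genes outside the rule, and up to 4 genes of each list by p; exceptions are marked, and 1 gene outside the rule is not reported here. Copies are pseudogenes of GENCODE vM21 that share an exact run of 50 bases with the member's main transcript, each assigned to the member sharing most runs. GENCODE and RefSeq sequences are on GRCm38 and were joined to the mm9 table by identifier or symbol only. Alternatives were other scalings, filters, DESeq2 1.42.0, limma-voom (limma 3.58.1), other totals, a threshold of 0.01, each library left out, copies added, and a length trend (lowess, span 0.3) removed over the 16837 tested genes with a known transcript length.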

Additional observations from a re-analysis of the deposited data

How the results depend on the processing

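The members' median log2 fold change stayed below 0 in all alternatives, from -0.17 (without mutant 5) to -0.056 (without mutant 7) when libraries were left out, and the difference in share was -0.41 to -0.13 percentage points. Members called lower numbered 1 (Rps27) with no filter and with DESeq2, 0 to 2 when a library was left out, and 0 in the others; 0 were called higher in any. Over all genes DESeq2 called 910 higher and 1022 lower, against 538 and 636, and leaving out a library gave 203 to 910 higher and 306 to 804 lower. Members below 0 numbered 66 to 78 when a library was left out. Log2 fold changes of uncalled genes crossed 0 for Rpl29 (0.0023 with no filter, 0.033 with limma-voom, 0.057 with length removed), Rplp2 (0.018 with length removed), Rpl7l1 (0.00213 with no filter), Rpl34 (-0.095) and Rps13 (-0.14) with copies added. With a library left out they ranged over -0.0084 to 0.23 (Rpl3l), -0.19 to 0.011 (Rplp1), -0.14 to 0.084 (Rplp2), -0.094 to 0.17 (Rpsa), -0.46 to 0.45 (Rpl29), -0.14 to 0.24 (Rpl34), -0.091 to 0.078 (Rpl7l1), -0.28 to 0.067 (Rplp0), -0.15 to 0.23 (Rps13) and -0.0050 to 0.13 (Aamp). The cause was not tested. Left-out libraries moved the mutant minus control ratio per 1000 to -30.0 to -9.19 (Rpl22l1), 15.3 to 43.3 (Rps27l) and 6.06 to 16.1 (Rpl7l1). They moved the numbers of called genes to 0 to 3 higher in biogenesis, 0 to 1 higher and 0 to 2 lower in initiation, 0 to 1 higher in elongation, 0 to 1 higher among chaperones and 0 to 2 higher in mTOR control. No paired analysis was possible because mutant libraries 5 and 7 and control libraries 2, 4 and 6 share no replicate number. With 2 mutant libraries that differ by more than the controls do, a shift of this size was not resolved at the level of single genes.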
